A study of Lactuca sativa with 24 samples.

Results

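Leaves of the lettuce varieties Luna bionda and Falstaff were compared by RNA sequencing at day 0, which by the labels is before any exposure to UV. The libraries were chosen by their labels, which gave 6 of the 24 libraries of the series: 3 of Luna bionda at day 0 and 3 of Falstaff at day 0. Both varieties are wild type, and by the labels both groups had received visible light alone. Days and treatments are given by the labels throughout. The other 18 libraries belong to 6 groups of 3 at day 6: Luna bionda with UVB for 2.5 h per day, with UVB for 7.5 h per day and with visible light alone, and Falstaff with UVB for 2.5 h per day, with UVA for 7.5 h per day and with visible light alone. The UV was given at 0.4 W per square metre. These libraries are used here only to show the same genes in libraries that the day 0 comparison did not use. The molecule is given as polyA RNA, from which amplified cDNA was made for paired-end sequencing. Nothing in the labels says that replicate libraries were made from different plants. The p-values therefore refer to the spread among the libraries at hand, and part of it may be technical.

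Lettuce varieties are inbred lines that have been selected for leaf form, colour and growth, and they differ in DNA sequence as well as in gene activity. A transcript can be abundant in the leaves of a variety and undetected in another when the gene, its promoter or a factor that controls it differs. Long noncoding RNAs, which carry no known protein, are in general less abundant and less conserved between plant lines than messenger RNAs. The annotation used here mostly gives no product name, so most genes below are given by identifier and by biotype, and no function is assigned to them.

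The 3 Luna bionda libraries held 31366145, 12072410 and 40831060 reads in genes, against 1036697, 34241038 and 20673784 reads in Falstaff replicates 1, 2 and 3. Falstaff replicate 1 is thus a shallow library, and results are given with and without it. Plastid genes took 9.44% of its reads, against at most 0.00192% in each of the other 5 libraries. Long noncoding RNAs took 16.1% of its reads, against 2.56% to 3.89% in the others, and reads fell in 19319 genes, against 23315 to 25879. Luna bionda replicate 2 and Falstaff replicate 1 carry batch tags of the lower of 2 number series, and the other 4 libraries carry tags of the upper series. The groups follow the labels. By the names of the authors' deposited tables, the Luna bionda libraries would be visible light at day 6 and the Falstaff libraries UVB at day 6, and the files do not resolve this conflict. Each library has the same variety by either reading, but whether light treatment differed between the groups cannot be told apart from the difference of variety.

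Of 21635 genes tested at day 0, 287 (1.33%) passed the limma test at an adjusted p of 0.05. In Luna bionda 147 of them (0.679% of those tested) were higher than in Falstaff and 140 (0.647%) were lower. None of the called differences was small: the absolute log2 fold change of the called genes was at least 1.77, with a median of 6.47 and a maximum of 11.39. In 156 of them the variety with the lower level had no read, with Falstaff replicate 1 left aside. Their fold changes, and so the median, depend on the value of 1 added to the normalized reads before the log. In all 287 the 3 Luna bionda libraries and the 3 Falstaff libraries did not overlap, which held for 17.1% of all genes tested. Over all genes the median log2 fold change was 0.09. Without Falstaff replicate 1 the test called 667 of 22390 genes (2.98%), 338 higher (1.51%) and 329 lower (1.47%) in Luna bionda, and these included all 287. The count also depended on every other library, since limma called 4, 7 and 0 genes without Luna bionda replicate 1, 2 or 3, and 47 and 58 genes without Falstaff replicate 2 or 3. Without Luna bionda replicate 3, 1194 of 21088 genes tested had an unadjusted limma p under 0.05. This share is near the one that a threshold of 0.05 passes with no difference. Each of the 287 genes kept its direction in all of these fits, which the lack of overlap between the groups made nearly certain.

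**Figure D1:**
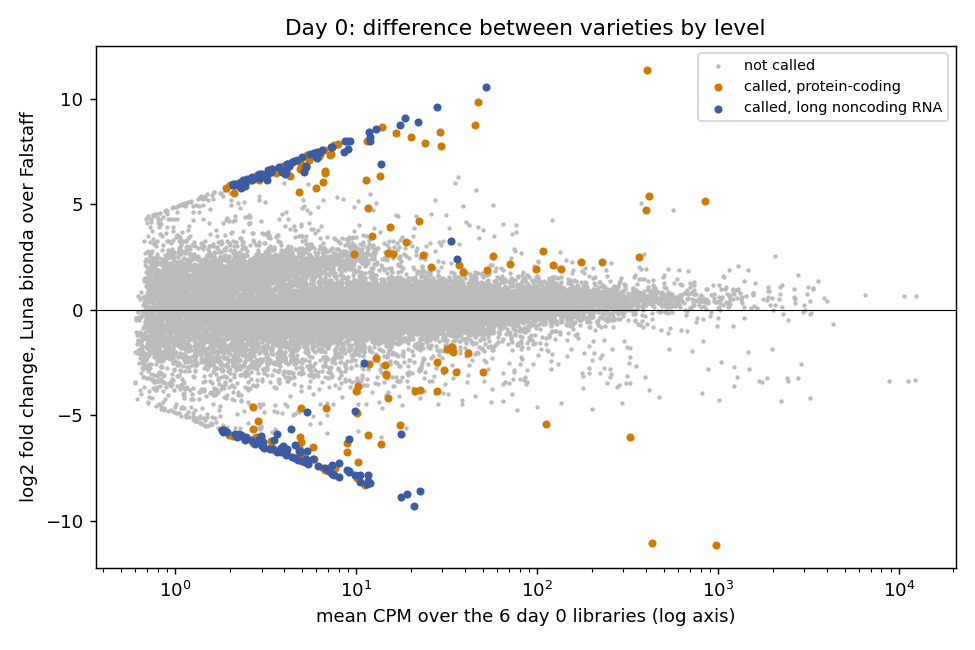
Each point is a gene tested at day 0. The horizontal log axis gives the mean level over the 6 libraries in CPM (reads per 1000000 reads in genes), and the vertical axis gives the log2 fold change of Luna bionda over Falstaff. Called genes are coloured by biotype, and all lie at an absolute log2 fold change of at least 1.77, with long noncoding RNAs mostly at low levels.

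Levels are given below as CPM, reads per 1000000 reads in genes, which are not corrected for gene length and so are shares of reads rather than amounts of transcript. Genes were sorted by mean CPM over the 6 libraries. Under 1 CPM none of 1119 genes was called. From 1 to 10 CPM 198 of 8990 genes (2.2%) were called, 99 higher and 99 lower in Luna bionda. From 10 to 100 CPM 75 of 9791 genes (0.766%) were called, 38 higher and 37 lower. From 100 to 1000 CPM 14 of 1623 genes (0.863%) were called, 10 higher and 4 lower, and none of the 112 genes of at least 1000 CPM was called. Called genes were therefore found over 3 of the 5 ranges of level and in both directions. Without Falstaff replicate 1 the calls from the lowest to the highest range were 76, 417, 153, 20 and 1.

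The precision behind these counts differed with level. The median half-width of the 95% interval of a fold change was 9.80-fold under 1 CPM, 3.66-fold from 1 to 10 CPM and 1.99-fold from 10 to 100 CPM. It was 1.997-fold from 100 to 1000 CPM and 3.24-fold at 1000 CPM or more. Genes with an interval that lay wholly within a 2-fold change in either direction numbered 1708 (7.89%), and 3220 (14.4%) without Falstaff replicate 1. For the other genes the interval reached or passed a 2-fold change, so that a missed call does not show equal levels in the varieties. Genes of 100 to 1000 CPM had a median log2 fold change of 0.43, and 78.7% of them had positive values. Without Falstaff replicate 1 these values were 0.21 and 68.4%, against -0.006 and 49.7% over all genes tested. The positive shift at this level was thus smaller without the shallow library but remained, and its cause was not tested.

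**Figure D2:**
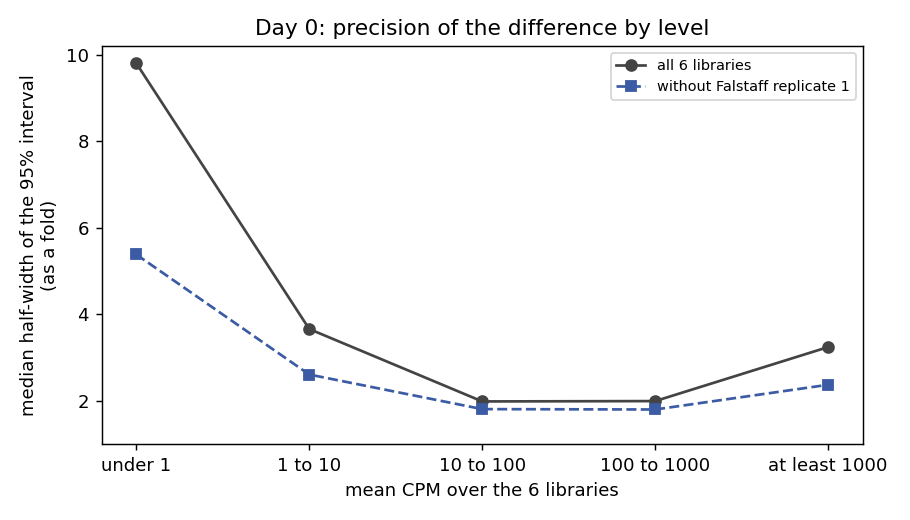
The median half-width of the 95% interval of the difference between Luna bionda and Falstaff is plotted as a fold against the range of mean CPM, with all 6 libraries and without Falstaff replicate 1. With all 6 it is widest under 1 CPM at 9.80-fold and narrowest from 10 to 100 CPM at 1.99-fold.

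All 14 called genes of 100 to 1000 CPM are protein-coding. With limma, 1, 2 and 0 of the 14 stayed called without Luna bionda replicate 1, 2 or 3, and 14, 4 and 7 without Falstaff replicate 1, 2 or 3. LOC111895045 had 958, 690 and 794 CPM in Luna bionda replicates 1 to 3, against 0, 0.409 and 0.871 CPM in Falstaff. Its log2 fold change was 11.39 (SE 0.89, with an adjusted p of 0.00516 in limma), the largest fitted value with all 6 libraries. Without Falstaff replicate 1 it was 10.39 and no longer the largest, and without Falstaff replicate 3 it was 12.21. LOC111880263 had 1714, 1865 and 1326 CPM in Luna bionda, against 73.3, 50.1 and 22.6 CPM in Falstaff. This gene was thus read in every library of both varieties, and its log2 fold change was 5.17 (SE 0.51, with an adjusted p of 0.00711 in limma). LOC111897350 had 895, 807 and 694 CPM in Luna bionda, against 32.8, 44.2 and 4.16 CPM in Falstaff, and its log2 fold change was 5.40 (SE 0.79, with an adjusted p of 0.023 in limma), or 4.38 without Falstaff replicate 3. LOC111919658 had 619, 745 and 905 CPM in Luna bionda, against 86.8, 30.4 and 7.35 CPM in Falstaff. Its log2 fold change was 4.75 (SE 0.83, with an adjusted p of 0.0433 in limma), or 5.74 without Falstaff replicate 1, the library with the highest of the Falstaff values, and 3.86 without Falstaff replicate 3.

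The 4 genes of this range that were lower in Luna bionda had at most 37.9 CPM in any of its libraries. LOC111879914 had 5.71, 0.166 and 0.392 CPM in Luna bionda, against 1269, 2562 and 1983 CPM in Falstaff. The Luna bionda value of replicate 1 stood above the other two, yet lay far under every Falstaff value, and the log2 fold change was -11.13 (SE 1.08, with an adjusted p of 0.00694 in limma). It was -12.49 without Luna bionda replicate 1 and -10.20 without replicate 2. LOC111886693 had 0.638, 0 and 0.833 CPM in Luna bionda, against 293, 1067 and 1239 CPM in Falstaff, and its log2 fold change was -11.07 (SE 0.99, with an adjusted p of 0.00694 in limma), or -9.88 without Luna bionda replicate 2 and -11.91 without Falstaff replicate 1. LOC111904214 had 5.29, 2.98 and 7.81 CPM in Luna bionda, against 158, 201 and 293 CPM in Falstaff, and its log2 fold change was -5.42 (SE 0.42, with an adjusted p of 0.00516 in limma). LOC111897180 varied widely within Luna bionda, at 10.6, 37.9 and 1.71 CPM, against 292, 698 and 912 CPM in Falstaff, and had a log2 fold change of -6.03 (SE 1.04, with an adjusted p of 0.041 in limma), or -7.07 without Luna bionda replicate 2 and -4.81 without replicate 3.

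The other 6 called genes of this range were higher in Luna bionda by log2 fold changes of 1.91 to 2.80. LOC122194910 had 210, 176 and 176 CPM in Luna bionda, against 20.3, 19.98 and 43.4 CPM in Falstaff, and its log2 fold change was 2.80 (SE 0.42, with an adjusted p of 0.0238 in limma). LOC111879403 had 758, 448 and 657 CPM in Luna bionda, against 65.6, 111 and 160 CPM in Falstaff. LOC111897600 had 277, 265 and 326 CPM in Luna bionda, against 54.0, 77.5 and 45.2 CPM in Falstaff. In LOC111889181 the levels were 368, 432 and 339 CPM in Luna bionda, against 65.6, 90.6 and 73.9 CPM in Falstaff. These genes were active in both varieties, and in each of them the lowest Luna bionda library lay above the highest Falstaff library. LOC111900153 and LOC111885936, the genes of this group with the smallest changes, had log2 fold changes of 2.13 (SE 0.37) and 1.91 (SE 0.33), with limma adjusted p of 0.0415 and 0.0424.

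From 10 to 100 CPM, the called genes with the largest differences were read in a single variety or almost so. The long noncoding RNA LOC111886953 had 112, 87.9 and 112 CPM in Luna bionda and no read in any Falstaff library, so that it was at least 1942-fold higher in Luna bionda. This bound takes 3 reads over all Falstaff libraries as the limit that a count of 0 allows, and like the bounds below it covers counting error only. Its limma adjusted p was 0.00258, the smallest of the comparison. The protein-coding LOC111905546 had 86.0, 113 and 83.0 CPM in Luna bionda, against 0, 0.0292 and 0.0967 CPM in Falstaff. These Falstaff values are 3 reads, and the ratio of Luna bionda to Falstaff was 1648 with an exact 95% counting interval of 564 to 7993.

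In the other direction, the long noncoding RNA LOC122198068 had no read in Luna bionda, against 32.8, 41.2 and 51.7 CPM in Falstaff, and was at least 1177-fold lower in Luna bionda (limma adjusted p = 0.00516). Another long noncoding RNA, LOC111912920, also had no read in Luna bionda, against 14.5, 38.4 and 53.1 CPM in Falstaff, and was at least 992-fold lower (limma adjusted p = 0.00643). From 1 to 10 CPM, the 4 genes named by the same rule are all long noncoding RNAs with no read in a variety. LOC111898721 had 15.3, 15.6 and 22.5 CPM in Luna bionda and none in Falstaff, at least 331-fold higher (limma adjusted p = 0.00694). LOC111895572 had 16.0, 19.7 and 16.6 CPM in Luna bionda and none in Falstaff, at least 326-fold higher (limma adjusted p = 0.00694). For LOC111893865 and LOC111876455 the Luna bionda libraries held no read. The Falstaff levels were 15.4, 18.1 and 15.0 CPM for LOC111893865, at least 454-fold lower in Luna bionda, and 15.4, 17.3 and 12.3 CPM for LOC111876455, at least 422-fold lower.

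**Figure D3:**
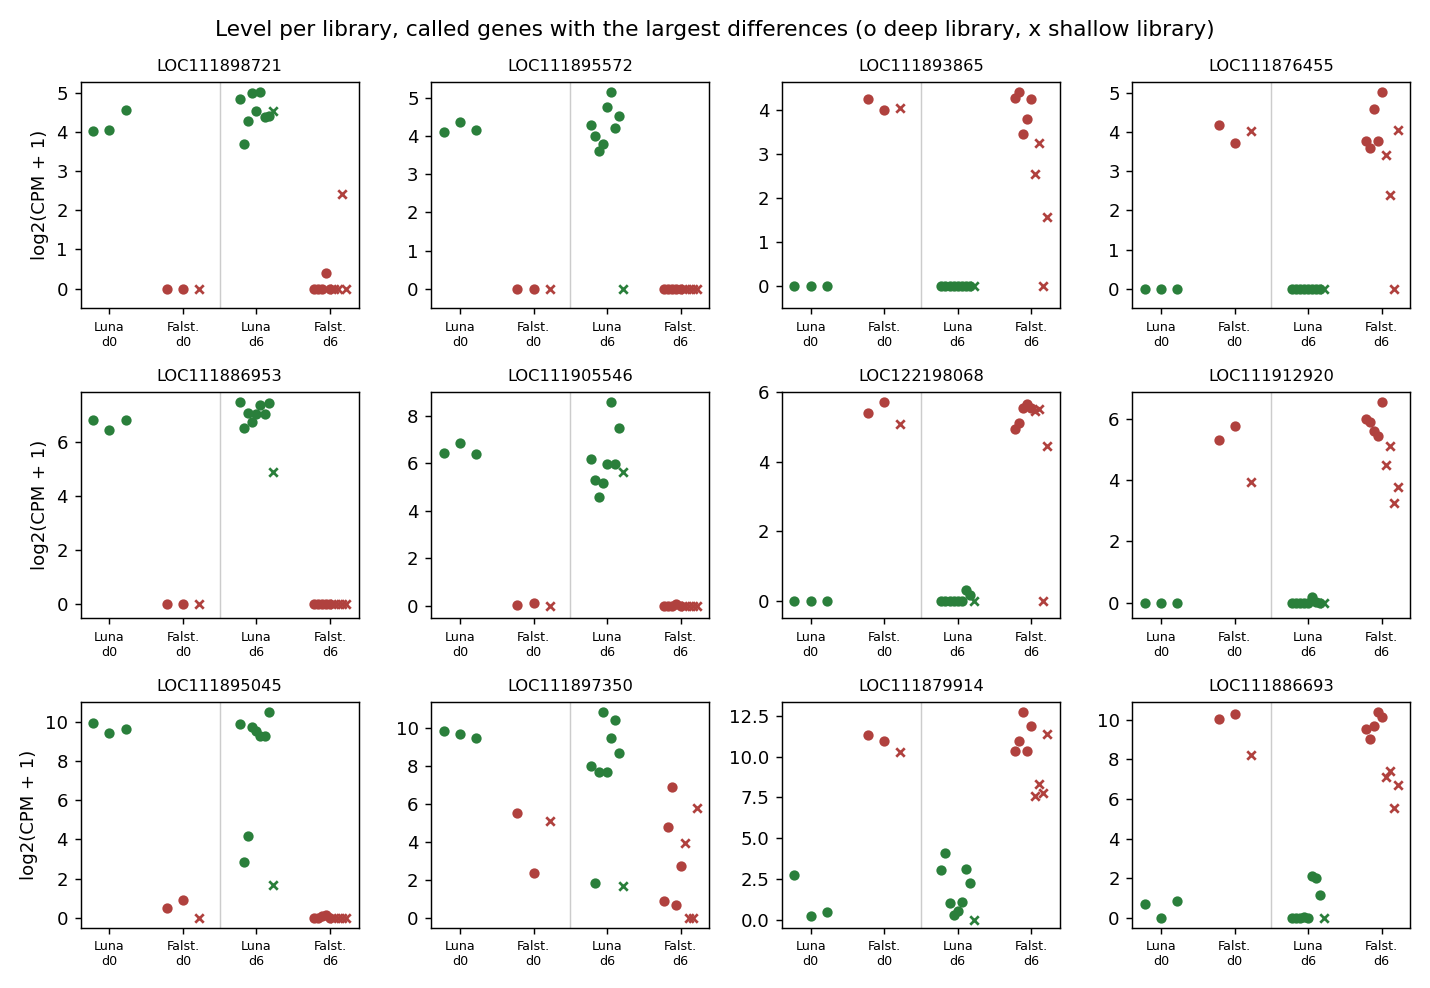
Levels are plotted for 12 called genes, the 2 with the largest fold change in each direction from 1 to 10, 10 to 100 and 100 to 1000 CPM, as log2(CPM + 1), with a point for each library, Luna bionda in green and Falstaff in red, at day 0 (d0) and over all day 6 groups (d6). Circles are deep libraries and crosses are shallow ones. At day 0 the 2 varieties do not overlap in any panel, and at day 6 the circles overlap in the panel of LOC111897350 alone.

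The state of each called gene in the variety with the lower level was then counted over the 5 deep libraries. In 156 of the 287 genes that variety had no read at all, 79 of them higher and 77 lower in Luna bionda. A further 39 genes had 1 to 3 reads there, and 39 had more reads but stayed under 1 CPM in each library. Only 45 genes were at 1 CPM or more in every deep library of the lower variety, 25 of them higher and 20 lower in Luna bionda, and 8 were mixed. Genes read at this level in both varieties had a median absolute log2 fold change of 2.63 and a range of 1.77 to 6.03. Smaller differences in this class follow in part from sorting the genes by their lower level. Most differences that passed the test were therefore between presence and near absence of reads. Wide intervals let only large differences pass, and the share of all tested genes in these states was not counted. From 10 to 100 CPM the median absolute log2 fold change of the called genes was 5.44, and 3.18 without Falstaff replicate 1. Over all 3 libraries of a group, a count of 0 allowed up to 0.0356 CPM over the Luna bionda libraries and up to 0.0536 CPM over the Falstaff libraries.

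**Figure D4:**
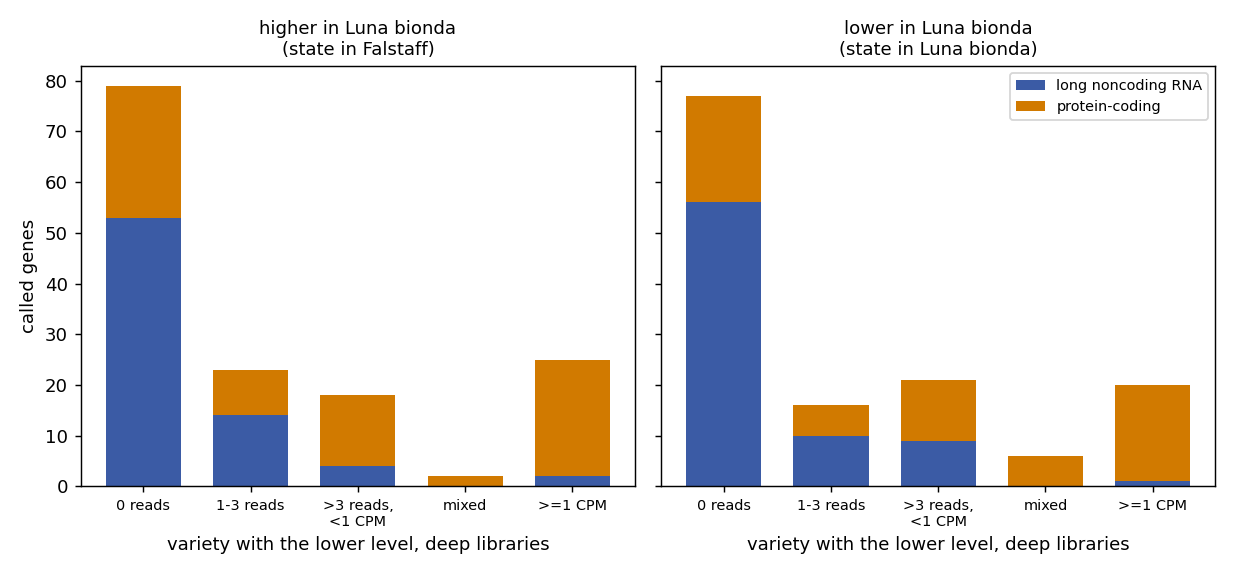
Counts of the 287 called genes by their state in the variety with the lower level, over the deep libraries, split by biotype. Genes higher in Luna bionda are on the left and genes lower in Luna bionda on the right, and the class with no read is the tallest in both, with 79 and 77 genes.

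Long noncoding RNAs supplied 149 of the 287 calls, 8.22% of the 1813 tested, and 73 were higher and 76 lower than in Falstaff. Protein-coding genes supplied 138 calls, 0.712% of 19395, with 74 higher and 64 lower. Without Falstaff replicate 1 these shares were 15.3% and 1.72%. From 1 to 10 CPM 10.4% of long noncoding RNAs and 0.967% of protein-coding genes were called, and from 10 to 100 CPM 6.47% and 0.546%. From 100 to 1000 CPM none of 28 long noncoding RNAs and 14 of 1575 protein-coding genes (0.889%) were called, and 28 genes are too few to show an order. From 1000 CPM no gene of either kind was called. Of the 149 called long noncoding RNAs, 73.2% had no read in the variety with the lower level, as did 34.1% of the 138 called protein-coding genes. Among the 45 called genes at 1 CPM or more in both varieties, 42 (93.3%) were protein-coding, close to the 89.6% of all tested genes. The use of strand in counting is not given in the sources used here, so reads of a noncoding RNA and of a gene that overlaps it could not be told apart.

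**Figure D5:**
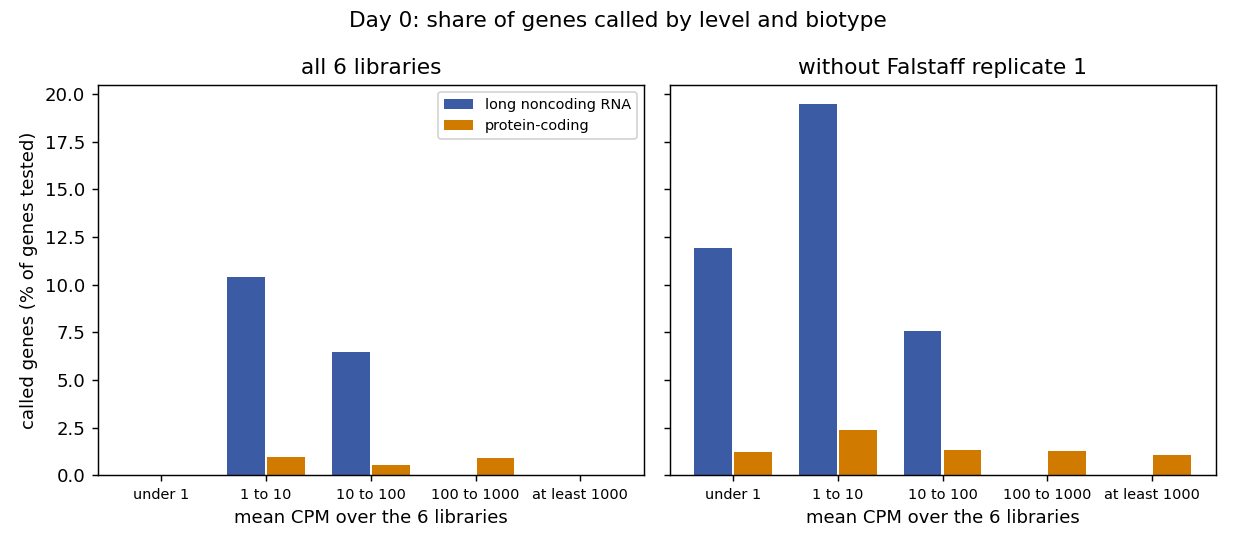
Bars give the share of tested genes that were called, for long noncoding RNAs and protein-coding genes in each range of mean CPM, with all 6 libraries on the left and without Falstaff replicate 1 on the right. From 1 to 10 CPM the shares with all 6 libraries are 10.4% and 0.967%.

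The 3 long noncoding RNAs called at 1 CPM or more in both varieties were named after their values had been seen. LOC128127585 had 57.6, 50.7 and 74.1 CPM in Luna bionda, against 7.72, 4.94 and 5.56 CPM in Falstaff, a log2 fold change of 3.28 (limma adjusted p = 0.0124). LOC111919705 had 47.2, 73.5 and 61.9 CPM in Luna bionda, against 8.68, 11.6 and 12.3 CPM in Falstaff, a log2 fold change of 2.43 (limma adjusted p = 0.0154). LOC111898464 had 2.61, 2.98 and 4.51 CPM in Luna bionda, against 15.4, 22.5 and 17.99 CPM in Falstaff, a log2 fold change of -2.50 (limma adjusted p = 0.0299). The varieties did not overlap in any of the 3.

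Some protein-coding genes were read at 1 CPM or more in every library of both varieties. LOC111905405 had 25.6, 38.1 and 38.2 CPM in Luna bionda, against 2.89, 5.14 and 2.71 CPM in Falstaff, and its log2 fold change was 3.22 (SE 0.37, with an adjusted p of 0.0111 in limma). LOC111895243 had 71.1, 108.8 and 114 CPM in Luna bionda, against 11.6, 22.1 and 16.3 CPM in Falstaff, and its log2 fold change was 2.53 (SE 0.30, with an adjusted p of 0.0117 in limma). In both genes every Luna bionda library lay above every Falstaff library. LOC111912929 had 12.3, 10.2 and 11.4 CPM in Luna bionda, against 80.1, 119 and 68.4 CPM in Falstaff, and its log2 fold change was -2.97 (SE 0.29, with an adjusted p of 0.00694 in limma). LOC111904772 had 7.72, 6.96 and 8.03 CPM in Luna bionda, against 65.6, 52.2 and 43.6 CPM in Falstaff, and its log2 fold change was -2.84 (SE 0.35, with an adjusted p of 0.0137 in limma).

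Genes read in a single variety were also counted without a test. At day 0, 161 genes had at least 10 reads in each Luna bionda library and none in the deep Falstaff libraries, of which 67.7% were long noncoding RNAs and 31.7% protein-coding. The reverse pattern, 10 reads or more in both deep Falstaff libraries and none in Luna bionda, held for 250 genes, of which 61.6% were long noncoding RNAs and 37.2% protein-coding. These 2 counts rest on unequal depth and on 3 against 2 libraries, and they are not comparable with each other. For comparison, 1813 of the 21635 genes tested were long noncoding RNAs. The test called 79 of the 161 and 77 of the 250, against 1.33% of all genes tested. Without Falstaff replicate 1 it called 144 and 177 of them, against 2.98% of all. These genes were picked for a large difference, so a high share of calls follows from the choice.

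In the order of genes in the RefSeq annotation, 62 of the 287 called genes (21.6%) lay within 5 places of another called gene, against 4.91% of the 21309 tested genes with a place that were not called. They formed 27 runs of 2 to 4 genes. In 21 runs all genes changed in a single direction, and in 6 runs the directions were mixed. Long noncoding RNAs and protein-coding genes occurred together in 19 of the 27 runs. The longest run held LOC111884345, LOC111884344, LOC111884346 and LOC122196382, none of which had a read in Falstaff. In Luna bionda LOC111884345 had 11.1, 11.3 and 14.1 CPM and LOC111884344, which is protein-coding, had 11.3, 11.2 and 9.77 CPM. The levels in Luna bionda were 5.74, 3.64 and 8.69 CPM for LOC111884346 and 4.14, 2.15 and 5.12 CPM for LOC122196382. The 4 genes were at least 227-fold, 201-fold, 112-fold and 71.0-fold higher in Luna bionda in this order, with limma adjusted p between 0.0089 and 0.0469. Every Luna bionda library held reads of each of the 4 genes.

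Runs of the other kinds were shorter. LOC111893865, LOC111893879 and LOC111893862 are long noncoding RNAs that were all lower in Luna bionda. LOC111893879 had no read in Luna bionda, against 1.93, 7.42 and 8.71 CPM in Falstaff. LOC111893862 had 0.0638, 0.166 and 0.416 CPM in Luna bionda, against 9.65, 25.5 and 18.8 CPM in Falstaff, and its log2 fold change was -6.13 (SE 0.74, with an adjusted p of 0.0124 in limma). In another run the directions were opposite: LOC111905498 and LOC111879914 were lower in Luna bionda, whereas LOC111920375 was higher. LOC111920375 had 13.0, 3.31 and 12.9 CPM in Luna bionda, against 0, 0.0584 and 0 CPM in Falstaff, which is 2 reads. Its ratio of Luna bionda to Falstaff was 323, with an exact 95% counting interval of 89.1 to 2668.

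Of 11 pairs of called genes that were next to each other, 10 had a single direction. The exception was LOC111920212 and LOC111920213, both long noncoding RNAs. LOC111920212 had 6.31, 2.82 and 4.65 CPM in Luna bionda, against 0, 0.0584 and 0 CPM in Falstaff. LOC111920213 had 0, 0 and 0.147 CPM in Luna bionda, against 5.79, 14.2 and 11.8 CPM in Falstaff. Reads moved in opposite directions at these neighbouring places, with limma adjusted p of 0.0396 and 0.017. A looser pair was the protein-coding LOC111892278, at 47.6, 67.8 and 65.1 CPM in Luna bionda against 13.5, 20.01 and 8.80 CPM in Falstaff, and the long noncoding RNA LOC111892235. LOC111892235 had no read in Luna bionda, against 3.86, 5.69 and 2.03 CPM in Falstaff.

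The most abundant transcripts were not among the called genes. LOC111884730 had 15852, 13925 and 12072 CPM in Luna bionda, against 2758, 11872 and 18406 CPM in Falstaff, a log2 fold change of 0.68 with a 95% interval of -2.14 to 3.49. LOC111908249 had 16400, 8966 and 8992 CPM in Luna bionda, against 1726, 16676 and 10875 CPM in Falstaff, a log2 fold change of 0.66 with an interval of -2.10 to 3.41. In both genes the varieties overlapped and Falstaff replicate 1 was the lowest library. LOC111902831 had 6369, 3343 and 5627 CPM in Luna bionda, against 1039, 2009 and 2998 CPM in Falstaff, with no overlap and a limma adjusted p of 0.629. LOC111884119 had 756, 1543 and 303 CPM in Luna bionda, against 1786, 5204 and 7694 CPM in Falstaff, with no overlap, a log2 fold change of -2.59 and a limma adjusted p of 0.351. A single gene of at least 1000 CPM passed without Falstaff replicate 1. This was LOC111899382, with 209, 370 and 57.0 CPM in Luna bionda, against 918, 2776 and 3044 CPM in Falstaff, and its limma adjusted p was 0.03 there and 0.0973 with all 6 libraries.

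Other genes were held within narrow limits. LOC111875886 had 121, 154 and 118 CPM in Luna bionda, against 106, 142 and 137 CPM in Falstaff, a log2 fold change of -0.01 with a 95% interval of -0.68 to 0.67. LOC111918261 had 92.0, 105 and 106 CPM in Luna bionda, against 71.4, 142 and 95.6 CPM in Falstaff, with an interval of -0.63 to 0.62. LOC111882192 had 105, 108 and 112 CPM in Luna bionda, against 104, 140 and 77.6 CPM in Falstaff, with an interval of -0.65 to 0.69. These 3 protein-coding genes had the intervals closest to 0 among genes of at least 100 CPM. Among the few nuclear genes with a named product, the cytosolic glutamine synthetase gene LOC111883376, whose enzyme assimilates ammonium, had 386, 321 and 241 CPM in Luna bionda, against 154, 385 and 348 CPM in Falstaff. The triosephosphate isomerase gene LOC111889525, whose enzyme interconverts triose phosphates, had 1651, 1352 and 1518 CPM in Luna bionda, against 449, 1186 and 1190 CPM in Falstaff. Neither passed the test, with limma adjusted p of 0.903 and 0.676.

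No organelle gene was called. Of the plastid genes 48 were tested, with a median log2 fold change of -2.82, and of 57 mitochondrial genes 43 were tested, with a median of -2.82. Summed plastid levels were 15.8, 19.2 and 16.6 CPM in Luna bionda, against 94407, 12.2 and 16.98 CPM in Falstaff, so that the negative medians came with the shallow library. For psbA, the plastid gene of the photosystem II core protein D1, the levels were 3.95, 4.97 and 5.14 CPM in Luna bionda, against 67110, 2.10 and 0.677 CPM in Falstaff. The mitochondrial gene atp9, which encodes a subunit of ATP synthase, had 1.82, 3.06 and 2.96 CPM in Luna bionda, against 2351, 2.25 and 2.27 CPM in Falstaff. The long noncoding RNA LOC111914492 was also highest in Falstaff replicate 1, with 15.9, 244 and 40.7 CPM in Luna bionda, against 73032, 25.9 and 82.3 CPM in Falstaff. Without that library 7 plastid genes were tested, with a median log2 fold change of -0.35, and 11 mitochondrial genes, with a median of 0.26.

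The order of the varieties was then read in the day 6 libraries, 9 of Luna bionda and 9 of Falstaff, of which 8 and 5 are deep. By the labels the 2 sets share visible light and UVB for 2.5 h per day, but the third treatment was UVB in Luna bionda and UVA in Falstaff. The names of the deposited tables conflict with the labels here too. By those names some of these libraries would be day 0 and others would have another treatment, with the variety unchanged. In 37.3% of the 287 genes the varieties did not overlap over all 18 libraries and kept the day 0 direction, against 0.883% of all tested genes that did not overlap. Over the deep libraries 246 (85.7%) did not overlap in the day 0 direction, against 4.55% of all tested genes, and none of the 287 separated in the opposite direction. Earlier results of these data were known when this was counted, so it is a description. LOC111886953 ranged from 28.9 to 178 CPM in Luna bionda at day 6, with a median of 133 CPM, and had no read in any of the 9 Falstaff libraries. LOC111904214 had 1.40 to 13.1 CPM in Luna bionda, with a median of 5.64 CPM, against 51.0 to 605 CPM in Falstaff, with a median of 235 CPM. LOC111912929 had 3.88 to 18.9 CPM in Luna bionda, with a median of 7.79 CPM, against 34.5 to 114 CPM in Falstaff, with a median of 71.1 CPM.

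Other genes spread more at day 6. LOC111897350 had 2.23 to 1781 CPM in Luna bionda, with a median of 256 CPM, against 0 to 117 CPM in Falstaff, with a median of 5.78 CPM, and the varieties overlapped. LOC111880263 had 28.9 to 2070 CPM in Luna bionda, with a median of 966 CPM, against 0 to 363 CPM in Falstaff, with a median of 22.9 CPM, and also overlapped. LOC111895045 had 2.23 to 1417 CPM in Luna bionda, with a median of 621 CPM, against 0 to 0.095 CPM in Falstaff, so that even the lowest Luna bionda library lay above every Falstaff library. Of the 380 genes called only without Falstaff replicate 1, 256 (67.4%) did not overlap over the deep day 6 libraries in the day 0 direction. Among the 21635 genes tested with all 6 libraries, 4.55% did not overlap there. That share was not counted over the 22390 genes tested without Falstaff replicate 1.

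Near the threshold, the genes just inside were LOC111914704 (limma adjusted p = 0.0481) and LOC111901583 (limma adjusted p = 0.0484), and those just outside were LOC111914027 and LOC128132145. LOC111901583 had 1.53, 4.80 and 3.33 CPM in Luna bionda, against 21.2, 41.6 and 14.8 CPM in Falstaff, a log2 fold change of -3.02. LOC111914027 had 856, 344 and 821 CPM in Luna bionda, against 55.9, 182 and 91.4 CPM in Falstaff, a log2 fold change of 2.64. The varieties did not overlap in either gene, so the threshold did not divide overlapping from separate genes here.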

How the data were processed

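The 7 deposited tables that were used give a normalized signal for each gene in 6 libraries. STAR alignment and counting with featureCounts 1.6.3 are named in the submitters' processing notes. The STAR version, genome build, annotation and use of strand were not given in the sources used here. Each library's signal was made of multiples of a single step, so whole reads were recovered for 100.0% of values at a tolerance of 0.001, and the tables were joined over 31499 genes. CPM is recovered reads over the library total, times 1000000. RefSeq names and gene order (assembly Lsat_Salinas_v11) matched 31046 identifiers.

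Differences were tested in limma 3.58.1 (R 4.3.3) on log2(normalized reads + 1) with a trended prior, median-of-ratios size factors and a mean of at least 10, and Benjamini-Hochberg adjustment at 0.05. Fold changes on this scale can understate or overstate changes of genes with few reads in a variety. The scripts were tested on simulated data. The edgeR 4.0.16 quasi-likelihood test on the recovered reads called 395 genes. By edgeR the log2 fold change was 11.75 for LOC111898721, against 8.02 in limma, and 10.47 for LOC111895045, against 11.39 in limma. Other alternatives were DESeq2 1.42.0, other scalings, pseudocounts and filters, a replicate block, a batch tag term, sample weights and the omission of libraries.

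Genes named were, per range of level and direction, the 2 called genes with the largest change and no overlap; the 5 genes with most reads per variety; the 3 most constant genes of at least 100 CPM; organelle genes with most reads; the longest runs of neighbours; and genes beside the threshold. The remaining called genes of at least 100 CPM, those active in both varieties, those most abundant in deep Falstaff libraries and the opposite neighbours were chosen after their values were seen. Of 29 planned gene lists 27 could not be filled, since the annotation used here lacks product names. Members, lists and tests were chosen with earlier results of these data known.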

Additional observations from a re-analysis of the deposited data

How the results depend on the processing

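The 287 genes kept their direction under every alternative run, which their lack of overlap at day 0 made nearly certain. TMM scaling, CPM scaling, pseudocounts of 0.5 and 5 and no filter gave 271 to 339 calls. Omission of organelle and rRNA genes gave 311, edgeR 395 and a fit of all 24 libraries 284. Similar counts did not mean the same genes. Of the 287 genes, 216 stayed called in the fit of all 24 libraries and 254 with CPM scaling. In the others of these settings 270 to 287 stayed called. LOC111897350 was not called in the fit of all 24 libraries. DESeq2 called 970 genes (38.5% higher in Luna bionda, against 51.2% with limma), sample weights 1745, and edgeR without Falstaff replicate 1 724. Omission of single libraries gave 0 to 667 calls, the highest without Falstaff replicate 1. A batch tag term gave 501 calls and the upper tag series alone 852. The lower series holds 1 library of each variety, so it gives no test. The direction of the 287 genes in that pair was fixed in advance, since the varieties did not overlap in any of them. A replicate block left 7 calls, 6 of them among the 287. Deviations from the group means had correlations of -0.25, -0.34 and 0.10 across genes between same-numbered libraries. With so few libraries, and a shallow one among them, these values cannot show whether the numbers pair the libraries. The causes of these differences in count were not tested. Falstaff replicate 1 limits what could be seen, since 1 of its reads is worth 0.965 CPM. The fold changes of genes with no read in a variety depend on the pseudocount, so bounds are given for them instead.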
